A study of Mus musculus with 6 samples.

Results

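The genes of the mitochondrial genome were followed through 6 mouse heart libraries in 3 groups. A gene was a member when its symbol in the tables starts with the prefix mt., which held for 17 of the 29385 genes with a row. They comprise 13 protein genes, 2 rRNA genes and 2 tRNA genes, and are written below with a hyphen as in the annotation (mt-Nd1). The annotation of the molecule lists 37 genes, so 20 of its 22 tRNA genes had no row in the tables used here. After a filter on low counts 16 members were tested, since mt-Tt, the tRNA gene for threonine, had 1 read in 1 library (RH/RQ vehicle replicate 1) and 0 reads in the other 5. A count of 0 allows up to 3 reads, or 0.0752 to 0.0827 CPM (a gene's reads per 1000000 reads counted on genes) in those 5 libraries, for counting error only.

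The hearts came from mice that all carried an altered Myh6 gene, which encodes the alpha heavy chain of cardiac myosin, and were taken 12 months after an administration at the neonatal stage. The labels name the alleles RH and RQ and do not say what they change. Group 1 was Myh6 RH/+ given vehicle, group 2 was Myh6 RH/RQ given vehicle, and group 3 was Myh6 RH/RQ given AAV-hpCas13d, a viral vector for a form of the RNA-cutting enzyme Cas13d, called treated below. Each group had 2 libraries, named replicates 1 and 2. Whether the 2 libraries of a group stem from different animals is not stated, so the spread behind each p-value is that between libraries and may be technical. In the limma tests, the main tests below, the spread of each gene is also drawn toward a trend over all genes tested. The labels do not give the promoter of the vector, its guide or its dose.

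The mitochondrial genome is a small circle, present in many copies per cell. Both of its strands are transcribed into long precursors, which are cut, mostly at the tRNAs between the other genes, into mRNAs, rRNAs and tRNAs. The mRNAs encode core subunits of complexes I, III and IV of the respiratory chain and of the ATP synthase, and cardiomyocytes, which work almost entirely on oxidative ATP production, are rich in them. Members cut from the same precursor can still differ in level through processing and decay.

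Before the values, short sequences show which reads of neighbouring or copied genes are hard to assign. The genes lie so close that some overlap, and a read within the shared bases belongs to both. In the lines below the shared bases are in capitals, read on the plus strand of GRCm38 (mm10), and taken with all sequences here from the transcripts of GENCODE M21. The 43 bases common to mt-Atp8 and mt-Atp6 lie within chrM:7912-7984, the 7 common to mt-Nd4l and mt-Nd4 within chrM:10152-10188, and the 14 common to mt-Nd5 and the opposite-strand gene mt-Nd6 within chrM:13537-13580.
mt-Atp8 into mt-Atp6: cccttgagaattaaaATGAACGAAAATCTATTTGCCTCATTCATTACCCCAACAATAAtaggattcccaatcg
mt-Nd4l into mt-Nd4: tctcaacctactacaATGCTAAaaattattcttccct
mt-Nd5 into the complement of mt-Nd6: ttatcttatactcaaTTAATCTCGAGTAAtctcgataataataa

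A nuclear copy of part of the molecule makes other reads ambiguous. Chromosome 1 holds, on its minus strand, 7 annotated pseudogenes at chr1:24611535-24616197 that match the stretch chrM:6390-11042, from the end of mt-Co1 to the first part of mt-Nd4. Of the 7 pairs 5 had 0 differences over the aligned bases, whereas mt-Nd3 and Gm28438 differed by T3C, and mt-Co1 and Gm29216 by A1066T, counted from the first base of the mitochondrial gene. The pairs below show the start of mt-Co3 (chrM:8607-8666) and of its copy Gm28437 (chr1:24613912-24613971), which are the same, and the differing base in capitals for mt-Nd3 (chrM:9459-9481) and Gm28438 (chr1:24613097-24613119). The last line is the whole of mt-Tp, the tRNA gene for proline on the minus strand (chrM:15356-15422), the single tRNA gene with more than 1 read.
mt-Co3: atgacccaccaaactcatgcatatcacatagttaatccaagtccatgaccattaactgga
Gm28437: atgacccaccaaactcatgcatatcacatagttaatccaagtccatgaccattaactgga
mt-Nd3: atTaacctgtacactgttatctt
Gm28438: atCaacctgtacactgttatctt
mt-Tp: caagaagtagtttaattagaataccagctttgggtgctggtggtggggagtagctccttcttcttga

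Of the windows of 100 bases along each gene, 99.9% were identical in the copy for mt-Co3, 99.5% for mt-Co2, 99.5% for mt-Atp6, 98.5% for mt-Nd4l and 97.6% for mt-Nd3, against 60.8% for mt-Nd4 and 26.3% for mt-Co1. The read length was not given in the sources used here. The part of mt-Atp8 on chromosome 1 would fall in 233 bases without an annotated gene and was not compared. How a read that matches both places was counted is not stated, so the values of these members and of their copies are uncertain to that extent.

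Library totals ran from 36269261 to 51017058 reads. The 10 cardiomyocyte markers checked were all present, with a sum between 55715 and 66706 CPM. The limma adjusted p of Myh6 itself was 0.993, 0.852 and 0.806 in the 3 comparisons. Xist, an RNA of female cells, ran from 265 to 326 CPM in the RH/+ and treated libraries but was at 0.274 and 0.0516 CPM in RH/RQ vehicle ones, where the Y-linked gene Ddx3y reached 85.2 CPM in both, against 0 reads in the other 4. Both comparisons that include RH/RQ vehicle hearts therefore differ in this male pattern as well as in genotype or treatment, and these cannot be told apart. Over all genes limma called 4.99% in RH/RQ vehicle against RH/+ hearts, 2.05% in treated against vehicle RH/RQ hearts and 2.86% in treated against RH/+ hearts. Of 8 fibroblast markers 5 rose in RH/RQ vehicle against RH/+ hearts, and 5 rose in treated against RH/+ hearts, while 3 fell with treatment. Their sum ran from 2186 to 2607 CPM for RH/+, from 3108 to 3257 CPM for RH/RQ vehicle and from 3234 to 3783 CPM for treated libraries. The 5 blood markers summed to 158 and 183 CPM in treated libraries against 230.4 to 348 CPM in the other 4. Of these 3 fell with treatment and 4 fell in treated against RH/+ hearts. The 4 atrial markers summed to 430.4 and 755 CPM in treated libraries against 112 to 144 CPM in the other 4. Of the 3 tested, 1 rose in each comparison of treated hearts. In RH/RQ vehicle against RH/+ hearts 4 of 7 macrophage markers rose and 1 of 6 mural markers fell, and 1 mural marker rose with treatment. The 3 adipocyte markers each had 0 reads in at least 1 library, and both that were tested fell in RH/RQ vehicle against RH/+ hearts. Of the cardiomyocyte and endothelial markers 0 were called. The part of these cell types in the results below was not tested.

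Reads on the 17 members made up 20.9% and 19.5% of the RH/+ libraries, 21.6% and 22.4% of the RH/RQ vehicle libraries, and 17.2% and 19.9% of the treated libraries. Both RH/RQ vehicle libraries lay above the other 4, and the treated and RH/+ libraries overlapped. On the log2 scale the summed level was 0.12 higher in RH/RQ vehicle than in RH/+ hearts and fell by 0.25 from RH/RQ vehicle to treated hearts, with an exact two-sided permutation p of 0.333 for each, the smallest p that 2 against 2 libraries allow. Between treated and RH/+ hearts the difference was -0.13 (exact two-sided permutation p = 0.667). In tissue RNA, fewer cells of a type and less RNA per cell cannot be told apart. Without mt-Co1, the most abundant member, the differences were 0.10, -0.24 and -0.14. Set against the summed cardiomyocyte markers in place of all reads, they were 0.29, -0.32 and -0.02. Against nuclear reads scaled by TMM factors they were 0.08, -0.31 and -0.24. On that scale RH/RQ vehicle and RH/+ libraries overlapped (exact two-sided permutation p = 0.667), and both treated libraries lay below both RH/+ libraries (exact two-sided permutation p = 0.333).

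**Figure D1:**
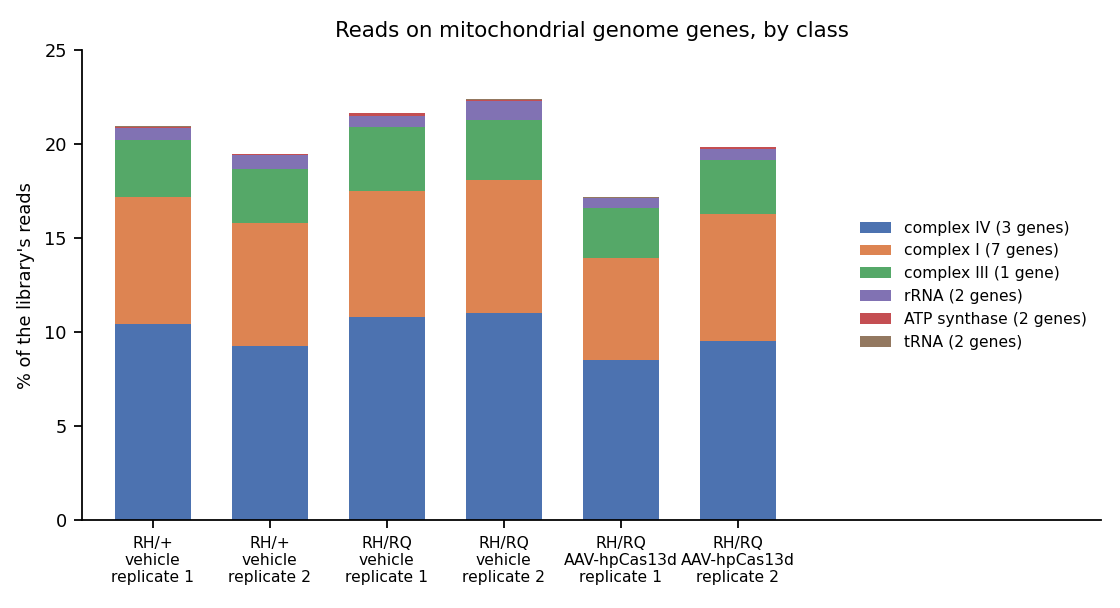
Reads on mitochondrial genome genes as a percentage of each library's reads, stacked by the complex or RNA class that the genes encode, for the 6 libraries. Complex IV and complex I make up most of each bar, and the bars reach 21.6% and 22.4% in RH/RQ vehicle libraries against 17.2% and 19.9% in treated ones.

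The 3 largest classes took close to fixed parts of this sum, while the smaller classes varied more for their size. The 3 complex IV genes took 47.5% to 50.0% of the mitochondrial reads, the 7 complex I genes 30.9% to 33.9%, and mt-Cytb, the complex III gene, 14.4% to 15.7%. The rRNA genes took 2.81% to 4.47%, the ATP synthase genes 0.281% to 0.536% and the tRNA genes 0.0438% to 0.0568%. The class of complex I was lowest in both RH/RQ vehicle libraries, at 30.9% and 31.5% against 32.1% and 33.6% in RH/+ and 31.6% and 33.9% in treated ones. The tRNA class was highest in both RH/+ libraries and lowest in both treated ones. Class sums were not tested.

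Per length, the members spanned a wide range that did not follow their order on the precursor. mt-Co1, the catalytic subunit of complex IV, was at 62219 CPM per kb on average over the 6 libraries and ranked first. It was followed by mt-Cytb at 26453, mt-Nd1 at 23532, mt-Nd2 at 13939, mt-Nd4 at 9253, mt-Nd5 at 7022 and mt-Nd6 at 4971 CPM per kb. The other 6 protein genes, mt-Co2 at 2799, mt-Co3 at 1637, mt-Atp6 at 1166, mt-Nd3 at 321, mt-Nd4l at 178 and mt-Atp8 at 87.0 CPM per kb, follow each other on the molecule, tRNA genes aside, and lie within the stretch with the chromosome 1 copy. Adding the reads of the copies raised the averages to 3937 for mt-Co2, 2454 for mt-Co3, 2039 for mt-Atp6, 605 for mt-Nd3 and 286 CPM per kb for mt-Nd4l, still below mt-Nd6. Any reads left out for matching both places would be missing from these sums too. The part of the copy in these low levels was not tested. The order of the first 7 genes, down to mt-Nd6, was the same in each library. Below it, mt-Rnr2 and mt-Co2, averaging 2809 and 2799 CPM per kb, changed places between libraries and did not differ beyond their spread.

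**Figure D2:**
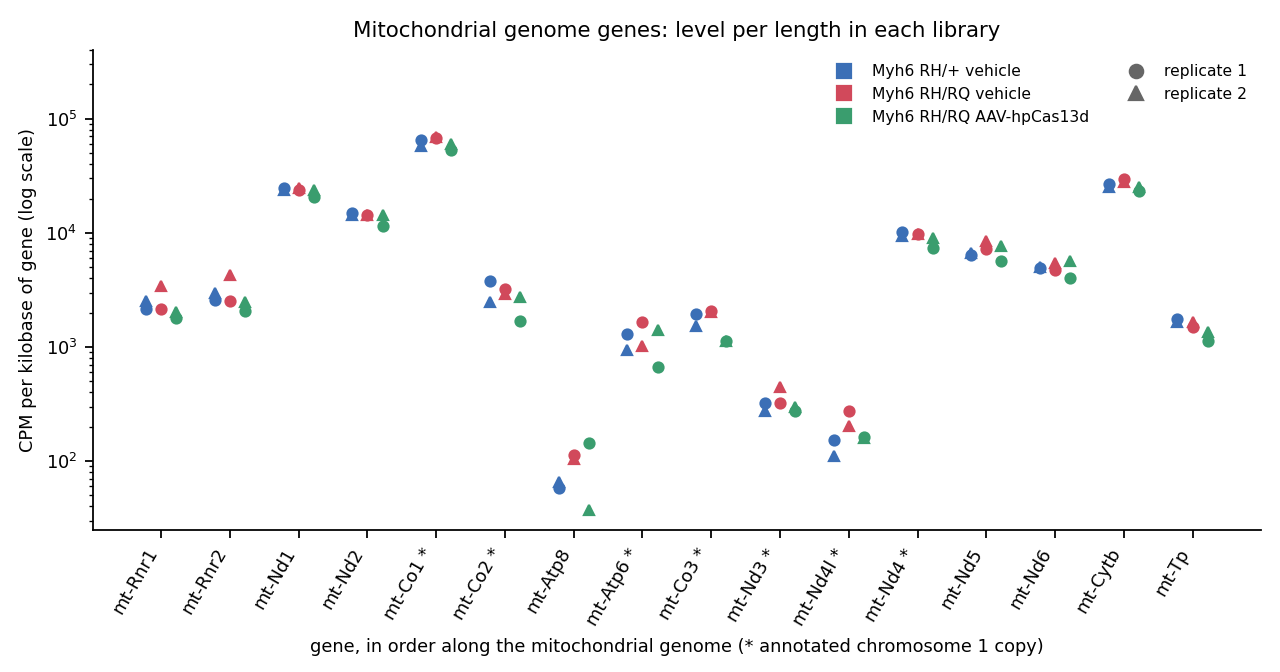
CPM per kilobase of gene (log axis) for 16 members in order along the mitochondrial genome, one point per library, coloured by group with the replicate as symbol; asterisks mark genes with an annotated chromosome 1 copy. The points of each gene lie close together next to the range between genes, from 87.0 for mt-Atp8 to 62219 for mt-Co1 on average, and the consecutive genes mt-Co2 to mt-Nd4l are the lowest protein genes.

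The 7 complex I genes encode membrane subunits of the enzyme that oxidises NADH. mt-Nd1 was at 23603 and 22678 CPM in RH/+ libraries, at 22668 and 23661 CPM in RH/RQ vehicle ones, and at 19627 and 22881 CPM in treated ones. Values below keep this order: mt-Nd2 was at 15380.3 and 14968, then 14798 and 14757, then 11903 and 15008 CPM. For both genes treated replicate 1 was the low library and treated replicate 2 lay among the others. mt-Nd4, one of the proton-pumping subunits related to antiporters, was at 14043 and 12928, 13584 and 13429, and 10129 and 12394 CPM, so that both treated libraries were below the other 4. mt-Nd5 was at 11571 and 12245, 13046 and 15563, and 10407 and 14017 CPM. mt-Nd6, the one protein gene on the minus strand, was at 2549.9 and 2608, 2476 and 2821, and 2104 and 2919 CPM. Both were lowest in treated replicate 1, while treated replicate 2 held the highest mt-Nd6 value of all.

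The remaining complex I genes are short and lie in the copied stretch. mt-Nd3 was at 111 and 94.6, 112 and 154, and 95.1 and 103 CPM, highest in RH/RQ vehicle replicate 2. mt-Nd4l (chrM:9877-10173) was at 45.2 and 33.2 CPM in RH/+ libraries. It was at 81.9 and 60.5 CPM in RH/RQ vehicle and at 48.4 and 47.5 CPM in treated ones. Group means were 39.2 ± 8.53, 71.2 ± 15.1 and 48.0 ± 0.696 CPM (SD, n = 2). Each of the 3 groups was separate from the others for mt-Nd4l, with RH/RQ vehicle highest and RH/+ lowest.

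mt-Cytb, cytochrome b of complex III, was at 30522 and 28845, 34012 and 32182, and 26843 and 29170.1 CPM, with both RH/RQ vehicle libraries above the rest. Of the complex IV genes, mt-Co1 was at 100335 and 89730.4, 104498 and 106791, and 82908 and 92511 CPM. mt-Co2, which carries the site that receives electrons from cytochrome c, was at 2595 and 1684, 2191 and 1980.2, and 1156 and 1881 CPM. For mt-Co2 the RH/+ libraries spanned both RH/RQ vehicle values. mt-Co3 (chrM:8607-9390), a core subunit without a redox centre, was at 1518 and 1208, 1619 and 1593, and 886 and 875 CPM. Its group means were 1364 ± 219, 1606 ± 18.3 and 881 ± 7.69 CPM (SD, n = 2). Both treated libraries lay below the other 4 and close to each other.

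The ATP synthase genes encode the proton channel subunit a (mt-Atp6) and a small companion (mt-Atp8). mt-Atp6 was at 876 and 636, 1138 and 696, and 454 and 965 CPM, and its libraries differed more within groups than between them. mt-Atp8 (chrM:7766-7969) was at 11.8 and 13.4, 23.0 and 21.1, and 29.5 and 7.62 CPM. Its treated libraries were the highest and the lowest of the 6, and both RH/RQ vehicle values were above both RH/+ values.

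The RNAs of the mitochondrial ribosome are not the main target of capture on poly-T beads, so their values count only the molecules that were captured. mt-Rnr1, the small-subunit rRNA, was at 2072 and 2399, 2064 and 3298, and 1727 and 1917 CPM. mt-Rnr2, the large-subunit rRNA, was at 4085 and 4663, 4026 and 6718, and 3248 and 3927 CPM. RH/RQ vehicle replicate 2 stood above the other 5 libraries for both, and their ratio stayed between 1.88 and 2.05 in all 6. mt-Tp was at 117 and 111, 100.5 and 111, and 75.1 and 91.1 CPM, with both treated libraries lowest. Reads over mt-Tp cannot be told apart from reads of uncut precursors, and the strand setting was not given in the sources used here.

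RH/RQ vehicle hearts were first compared with RH/+ vehicle hearts. These groups differ in the RQ allele in place of a wild-type one and also in the sex-linked pattern. By limma on log2(CPM + 1) with Benjamini-Hochberg adjustment over 16804 genes, 1 of the 16 tested members rose and 0 fell, beside 4.99% of all genes called. That member was mt-Nd4l, 0.85 higher (SE 0.13; limma adjusted p = 0.000272). Folds on this scale understate the change of low genes. The adjusted p ranged from 1.17e-06 to 0.18 over 18 alternatives for mt-Nd4l and missed 0.05 only without a filter on low genes. The median log2 difference of the members was 0.19 against 0.04 over all genes, and 13 of 16 were above 0, against 57.8% of all genes, although mt-Nd1, mt-Nd4 and mt-Nd6, each near 0, fell below it with TMM or RLE factors or DESeq2.

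The other members did not pass. mt-Atp8 was 0.76 higher (SE 0.30; limma adjusted p = 0.174) and mt-Nd3 0.36 higher (SE 0.12; limma adjusted p = 0.0951). With the 4 libraries of this comparison alone, which leaves out the widely spread treated values, the SE of mt-Atp8 was 0.12 and the limma adjusted p was 0.000349. That p was 0.000579 without treated replicate 1 alone and 0.000268 without treated replicate 2 alone. In the authors' deposited table of these 4 libraries mt-Atp8 had a log2 fold change of 0.75 and an adjusted p of 2.59e-05, while mt-Nd4l had 0.80 and 0.0649. In counts of libraries, 7 of the 16 members were higher in both RH/RQ vehicle libraries than in both RH/+ libraries (mt-Co1, mt-Atp8, mt-Co3, mt-Nd3, mt-Nd4l, mt-Nd5 and mt-Cytb), beside 30.8% of all genes. The 2 members mt-Nd2 and mt-Tp were lower without overlap, beside 18.5% of all genes.

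Hearts of RH/RQ genotype were next compared between AAV-hpCas13d and vehicle, groups that also differ in the sex-linked pattern. A change with treatment, here and elsewhere, is a difference between these groups and cannot be told apart from that pattern. Every one of the 16 members had a lower mean log2 level in treated hearts by CPM, by TMM and RLE factors and by DESeq2, but as shares of the mitochondrial reads 11 were below 0 and 5 above. The median by CPM was -0.38 against 0.04 over all genes. By limma 2 of them fell and 0 rose, beside 2.05% of all genes called. mt-Co3 fell by 0.87 (SE 0.12; limma adjusted p = 9.23e-05) and mt-Nd4l fell by 0.54 (SE 0.13; limma adjusted p = 0.0299). Both falls had the same direction in every alternative, though some, such as another filter or the 4 libraries alone, leave the log2 difference itself unchanged. The fall of mt-Nd4l and its rise in the first comparison rest on the same RH/RQ vehicle libraries, so they are not separate measurements. The adjusted p ran from 3.41e-14 to 0.182 for mt-Co3, missing 0.05 only without a filter, and from 0.00152 to 0.497 for mt-Nd4l, which was lost in 5 of 18 alternatives. For mt-Nd4l these were no filter, a pseudocount of 5, and leaving out RH/RQ vehicle replicate 1 (log2 difference -0.33), treated replicate 1 or treated replicate 2.

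In counts of libraries, 10 members were lower in both treated libraries than in both RH/RQ vehicle libraries, beside 14.4% of all genes, and 0 were higher, beside 26.2%. They were mt-Rnr1, mt-Rnr2, mt-Co1, mt-Co2, mt-Co3, mt-Nd3, mt-Nd4l, mt-Nd4, mt-Cytb and mt-Tp. mt-Tp fell short at -0.35 (SE 0.10; limma adjusted p = 0.0899), as did mt-Nd3 at -0.41 (SE 0.12; limma adjusted p = 0.0899), which was at -0.10 once the reads of its copy were added. mt-Rnr1 and mt-Rnr2 were at -0.52 and -0.54, with limma adjusted p-values of 0.117 and 0.184, and passed with edgeR on the recovered reads (adjusted p = 0.0381 and 0.042) but not with DESeq2 (adjusted p = 0.503 and 0.556). Without RH/RQ vehicle replicate 2 they were at -0.18 and -0.17, and without RH/RQ vehicle replicate 1 at -0.86 and -0.91. For the most abundant members limma gave wide errors: mt-Co1 was at -0.27 with an SE of 0.41, while DESeq2 gave -0.33 with an SE of 0.10 (adjusted p = 0.0623). In the authors' deposited table mt-Co3 (-0.92, adjusted p = 6e-20) and mt-Nd4l (-0.62, adjusted p = 0.000741) were the 2 members with an adjusted p under 0.05. The share over all genes in that table was not counted.

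Treated RH/RQ hearts were also compared with RH/+ vehicle hearts, which had the same sex-linked pattern. By limma 2 of the 16 members fell and 0 rose, beside 2.86% of all genes called, with a member median of -0.15 against 0.08 over all genes. mt-Co3 fell by 0.62 (SE 0.12; limma adjusted p = 0.00316) and mt-Tp fell by 0.45 (SE 0.10; limma adjusted p = 0.0126). DESeq2 called both and also mt-Nd4, at -0.37 (SE 0.11; DESeq2 adjusted p = 0.0462), beside 436 of 15500 genes. By limma mt-Nd4 was at -0.27 (SE 0.21; limma adjusted p = 0.584). Without RH/+ replicate 1 neither mt-Co3 nor mt-Tp passed by limma, and they were then at -0.46 and -0.41. mt-Tp also missed 0.05 without treated replicate 1, at -0.32. Without overlap, 5 members were lower in both treated libraries than in both RH/+ libraries (mt-Rnr1, mt-Rnr2, mt-Co3, mt-Nd4 and mt-Tp), beside 9.66% of all genes, and mt-Nd4l alone was higher, beside 35.0%. Its difference was 0.30 (SE 0.13; limma adjusted p = 0.28).

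In the authors' deposited table of that comparison 4 members had an adjusted p under 0.05, and the share over all genes was not counted. mt-Co3 had a log2 fold change of -0.74 there (adjusted p = 3.6e-08) and mt-Tp one of -0.56 (0.000957), while mt-Rnr1 had -0.40 (0.0119) and mt-Rnr2 -0.39 (0.0412). The mt-Atp8 value depended on which treated library was kept, at 1.16 without replicate 2 and -0.66 without replicate 1, each with a limma adjusted p under 0.05 (7.1e-05 and 0.0298). The comparison with RH/+ shares its treated libraries with the comparison before it, so the values of mt-Co3 in these 2 comparisons are not separate measurements.

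**Figure D3:**
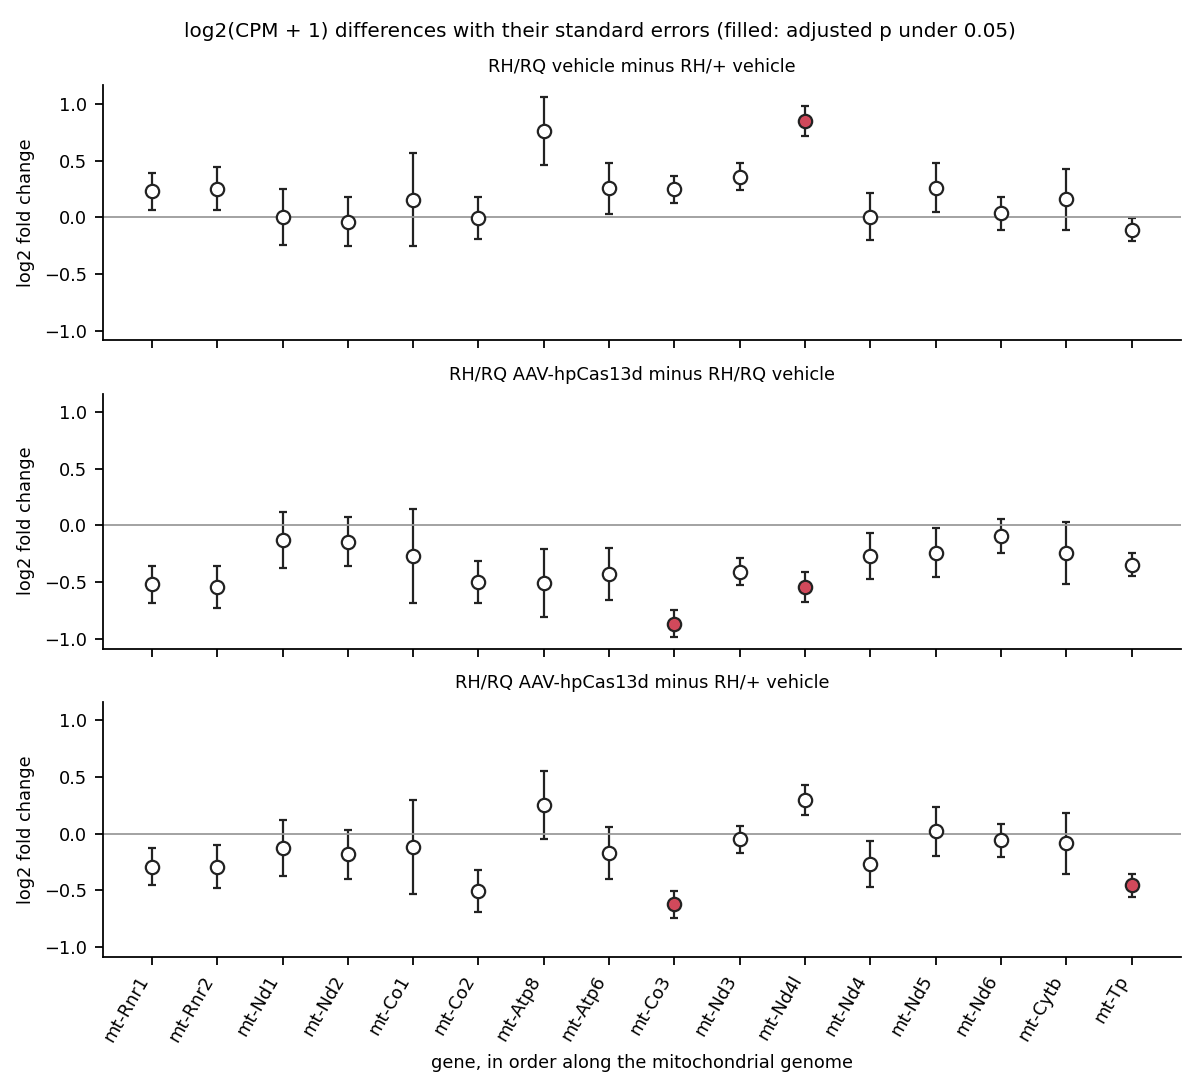
Difference in mean log2(CPM + 1) of 16 members, in order along the mitochondrial genome, for the 3 comparisons, with the standard error of the limma fit as bars and filled points where the adjusted p was under 0.05. All 16 points of the middle panel are below 0, and the filled points are mt-Nd4l (0.85) at the top, mt-Co3 (-0.87) and mt-Nd4l (-0.54) in the middle, and mt-Co3 (-0.62) and mt-Tp (-0.45) at the bottom.

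The members were then scaled to the mitochondrial reads of their own library, which takes out the difference in the sum. mt-Nd4l took 0.0216% and 0.0170% of these reads in RH/+, 0.0379% and 0.0270% in RH/RQ vehicle, and 0.0282% and 0.0239% in treated hearts. mt-Co3 took 0.725% and 0.620%, 0.748% and 0.712%, and 0.516% and 0.440% in the same order. The treated libraries were still the lowest for mt-Co3, while for mt-Nd4l they overlapped with RH/RQ vehicle and lay above RH/+. mt-Tp took 0.0558% and 0.0568%, 0.0464% and 0.0494%, and 0.0438% and 0.0458%, which puts the RH/+ libraries on top and the treated ones at the bottom with no overlap among the 3 groups.

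In RH/RQ vehicle against RH/+ hearts the share of mt-Nd4l rose by 0.74 on the log2 scale (SE 0.17; limma adjusted p = 0.00226), the 1 member called of 16, beside 2.70% of all genes on this scale. This call was lost when RH/+ replicate 2 or RH/RQ vehicle replicate 1 was left out. In treated against vehicle RH/RQ hearts the share of mt-Co3 fell by 0.61 (SE 0.16; limma adjusted p = 0.00895), again 1 member of 16, beside 6.21% of all genes. Leaving out either RH/RQ vehicle library ended that call. On this scale the median of all genes moved to 0.29 in the same comparison and to 0.22 against RH/+, since the mitochondrial sum is the denominator, and the members' medians were -0.13 and -0.02. The fall of mt-Nd4l with treatment was -0.30 as a share (SE 0.17; limma adjusted p = 0.209).

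In treated against RH/+ hearts limma called 0 of the 16 shares, beside 2.87% of all genes. At an unadjusted p under 0.05 were 4 shares, beside 2938 of 16804 genes, and edgeR called 1, mt-Co3, beside 513 genes in all. The log2 difference in the share of mt-Co3 was -0.49 (SE 0.16; limma adjusted p = 0.0652). The shares of mt-Nd1 and mt-Nd2 were lower in both RH/RQ vehicle libraries than in the other 4. They were 10.5% and 10.6% for mt-Nd1 against 11.3% to 11.6%, and 6.84% and 6.59% for mt-Nd2 against 6.93% to 7.68%. Against RH/+ their log2 differences were -0.12 and -0.16 with SEs of 0.22 and 0.21, and neither passed (limma adjusted p = 0.916 and 0.871). These SEs draw on the trend over all genes as well as on each gene's own spread.

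**Figure D4:**
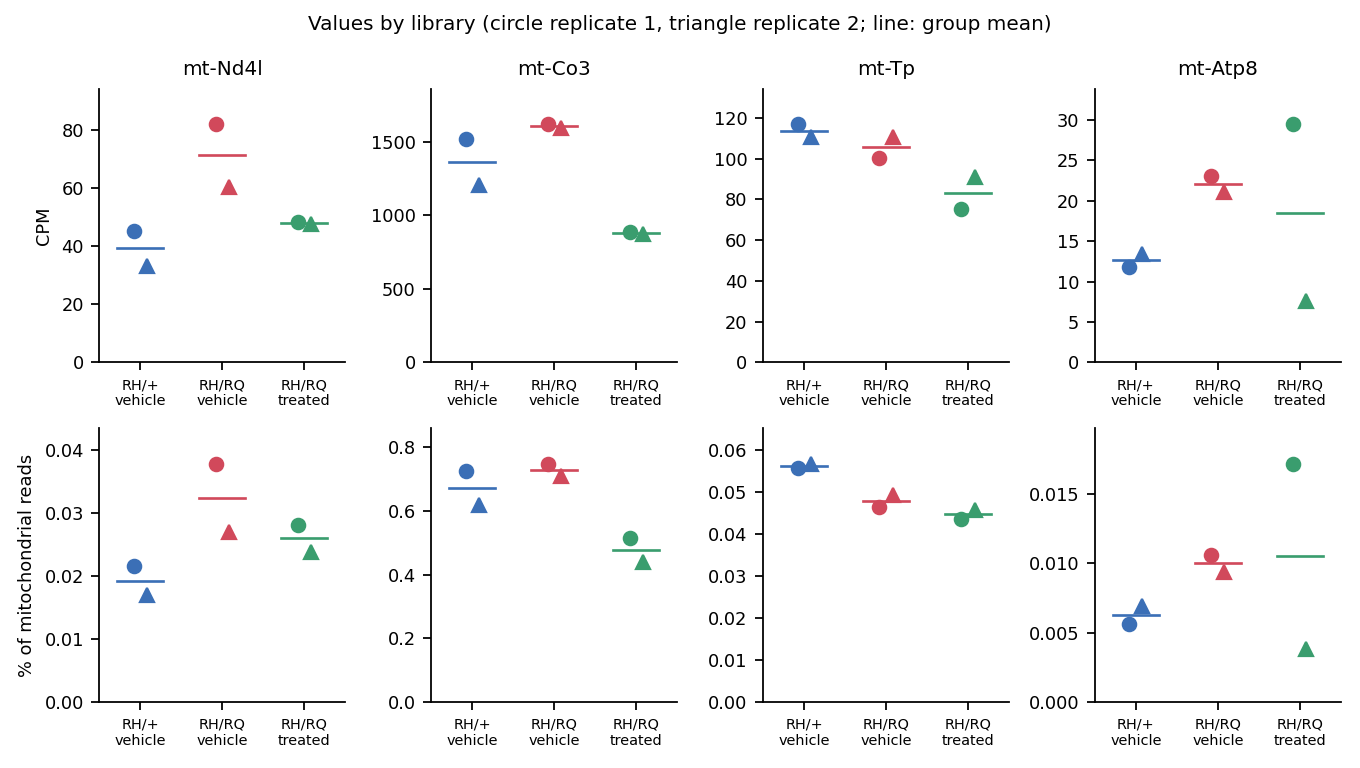
CPM (top row) and percentage of mitochondrial reads (bottom row) of mt-Nd4l, mt-Co3, mt-Tp and mt-Atp8 in each library, with group means as lines and all axes starting at 0. The treated mt-Co3 values (886 and 875 CPM) lie below the other 4 libraries in both rows, the 2 treated mt-Atp8 values (29.5 and 7.62 CPM) are the highest and lowest in both, and mt-Nd4l is highest in the RH/RQ vehicle libraries by CPM.

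Since 2 of the called members have copies that match over almost their whole length, the reads of the copies were set beside theirs. Gm10222, the copy of mt-Nd4l, was at 33.8 and 33.5, 32.9 and 33.9, and 26.3 and 33.2 CPM in the same order of libraries. Of the reads of this pair 57.2% and 49.8%, then 71.3% and 64.1%, then 64.8% and 58.8% were counted on mt-Nd4l, so both RH/RQ vehicle libraries were above both RH/+ libraries in this percentage. Gm10222 did not pass in RH/RQ vehicle against RH/+ hearts (log2 difference -0.01, SE 0.12; limma adjusted p = 0.984). With the reads of both added, mt-Nd4l was 0.52 higher there (SE 0.11; limma adjusted p = 0.00437) and fell by 0.42 with treatment (SE 0.11; limma adjusted p = 0.0409).

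Gm28437, the copy of mt-Co3, was at 800.0 and 516, 666 and 802, and 454 and 606 CPM. Its difference with treatment was -0.48 (SE 0.15; limma adjusted p = 0.132). Between 59.1% and 70.8% of the pair's reads were counted on mt-Co3, with treated replicate 2 the lowest. With the reads of both added, mt-Co3 fell by 0.73 with treatment (SE 0.13; limma adjusted p = 0.00263) and by 0.50 against RH/+ (SE 0.13; limma adjusted p = 0.0405). As shares of the mitochondrial reads 0 of the members were called by limma in any comparison once the copies' reads were added. Over all genes 442, 1051 and 496 of 16797 were called there. The share of mt-Co3 was then at -0.48 with treatment and that of mt-Nd4l at 0.40 in RH/RQ vehicle against RH/+ hearts.

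The copies of mt-Co2 and mt-Atp6 also had calls, with the limit that reads of these pairs cannot be assigned. Gm28661, matching mt-Co2, was at 962 and 1031, 724 and 674, and 485 and 792 CPM, and fell by 0.51 on the log2 scale from RH/+ to RH/RQ vehicle hearts (SE 0.15; limma adjusted p = 0.0433) and by 0.68 from RH/+ to treated hearts (SE 0.15; limma adjusted p = 0.00905). Gm10925, matching mt-Atp6, was at 623 and 505, 812 and 626, and 437 and 563 CPM and fell by 0.52 with treatment (SE 0.13; limma adjusted p = 0.0363). Of the reads shared out between mt-Nd3 and Gm28438, 42.6% to 67.3% were counted on mt-Nd3. Gm28438 was at -0.29 and 0.31 in the first and second comparisons, and with its reads added mt-Nd3 was at 0.07 and -0.10 in place of 0.36 and -0.41. For mt-Co1 and mt-Nd4, whose chromosome 1 copies cover only part of the gene, at least 98.7% of the pair's reads were on the member in each library. Chromosome 2 also holds a pseudogene, Gm13340, that aligns to all 1545 bases of mt-Co1 at 97.6% identity and averaged 93.2 CPM. Beside it, Gm13341 matches mt-Co2 at 95.9% (6.70 CPM) and Gm13339 part of mt-Nd2 at 96.7% (1.54 CPM). Reads of these chromosome 2 copies were not added.

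**Figure D5:**
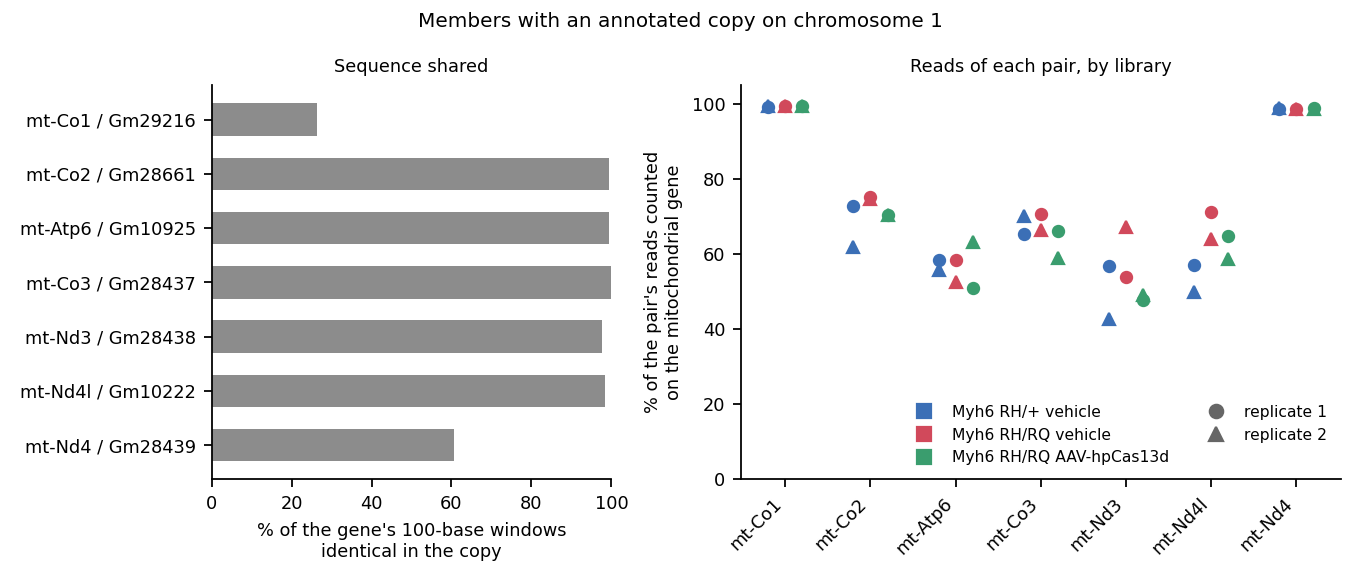
Left, percentage of 100-base windows of each member that are identical in its annotated chromosome 1 copy; right, percentage of the reads of each pair that were counted on the mitochondrial gene, one point per library. Pairs with near-complete identity, such as mt-Nd4l with Gm10222 (98.5%), are split between both places, while mt-Co1 and mt-Nd4 keep at least 98.7% of the reads.

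The nuclear genes that make and handle these RNAs were described by 4 lists. On a list of 26 genes of mitochondrial transcription and genome maintenance, limma called 0 in any comparison, and edgeR and DESeq2 also called 0. Over all genes limma called 4.99%, 2.05% and 2.86% in the order of comparisons above, so 0 of a short list is near these shares. At an unadjusted p under 0.05 were 4, 2 and 1 of the list, beside 2868, 2096 and 2544 of 16804 genes. Its median log2 differences were -0.04, 0.08 and 0.01, beside 0.04, 0.04 and 0.08 over all genes. The smallest p-values were those of Mterf2, Mgme1 and Mterf1b (-0.36, -0.31 and -0.51) in the first comparison, Mterf1b, Tk2 and Dna2 (0.71, 0.51 and -0.38) in the second, and Mterf2, Tk2 and Dguok (-0.30, 0.29 and 0.20) in the third. The MTERF proteins bind mitochondrial DNA or rRNA, Mgme1 and Dna2 are nucleases of DNA maintenance, and Tk2 and Dguok supply nucleotides for replication. None had a limma adjusted p under 0.0651.

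Beside the all-gene numbers given for the first list, limma called 0 of 29 tested genes that process or stabilise mitochondrial RNA in each comparison. At an unadjusted p under 0.05 were 0, 2 and 2 of these genes, and edgeR and DESeq2 called 0. Those with the smallest p were Fastk, Nsun4 and Hsd17b10 (-0.20, -0.19 and -0.19), then Fastk, Hsd17b10 and Elac2 (0.27, 0.22 and 0.21), then Trmt61b, Elac2 and Fastkd2 (0.51, 0.29 and -0.23). Hsd17b10 and Elac2 belong to the enzymes that cut tRNAs out of the precursor, and the FASTK proteins act on the stability and processing of mitochondrial mRNAs. The median differences were 0.01, 0.03 and 0.01.

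Among 33 genes that modify or charge mitochondrial tRNAs, 1 fell and 0 rose in treated against RH/+ hearts, a share near the 2.86% called over all genes. It was Lars2, the mitochondrial leucyl-tRNA synthetase, at 796 and 574, 433 and 522, and 511 and 281 CPM in the same order of libraries. Its difference was -0.83 (SE 0.18; limma adjusted p = 0.00925), and edgeR but not DESeq2 also called it. In the other 2 comparisons limma called 0, with 5 and 1 at an unadjusted p under 0.05, beside 2868 and 2096 of 16804 genes. There edgeR called 0, and DESeq2 called Fars2 in the first, where it called 954 genes in all. Fars2 and Cars2, synthetases for phenylalanine and cysteine, were at -0.29 and -0.27 in the first comparison with Lars2 at -0.51, Cars2, Gatc and Lars2 were at 0.31, 0.23 and -0.33 in the second, and Trmu and Qrsl1 at 0.28 and -0.20 in the third.

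Of 14 tested mitochondrial translation factors limma, edgeR and DESeq2 called 0 in each comparison, and 0 had an unadjusted p under 0.05. These counts stand beside the all-gene numbers given for the first list. The smallest p-values belonged to Oxa1l, Tufm and Gfm1 (-0.19, -0.18 and -0.17), then Oxa1l, Mrrf and Gfm2 (0.19, 0.14 and -0.10), then Mtif3, Tufm and Gfm1 (0.29, -0.12 and -0.12). Tufm, Gfm1 and Gfm2 are elongation or recycling factors of the mitochondrial ribosome, and Oxa1l inserts its products into the inner membrane.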

How the data were processed

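RNA was sequenced from 6 heart samples, 1 µg of total RNA each, after poly-T bead selection, per the labels' protocols. HISAT2, HTSeq, DESeq2 and mm10 are named in the submitters' processing notes, while versions, roles, annotation and strand setting are not given in the sources used here. The authors deposited 3 tables of 4 libraries with CPM, and per the file headers a mean signal (counts over size factors), a log2 fold change, its standard error and a test score, and p-values. Every CPM value was a whole multiple of 1 read (100% of values, tolerance 0.001), so reads were recovered. Groups came from the labels. The main test was limma 3.58.1 with a trend on log2(CPM + 1), 1 fit of 3 group means over 6 libraries, after filterByExpr (minimum count 10; 16804 of 29385 genes), with Benjamini-Hochberg calls at an adjusted p under 0.05. Shares used the member's reads per 1000000 mitochondrial reads. edgeR 4.0.16 and DESeq2 1.42.0 on recovered reads, other scalings, filters and pseudocounts, the 4 libraries alone, a replicate block and leaving out each library were alternatives. The sum of chromosome 1 copies was added after seeing the data. The main limma fits by CPM and by share, and the edgeR and DESeq2 fits by CPM, were run on simulated data, and the other alternatives were not. Every simulated gene had the same spread beyond counting error, so that run cannot show how the tests do on widely spread members. Copies were found with BLAST+ 2.17.0 on GENCODE M21. All protein and rRNA members were named with their values, as were tRNA genes of at least 1 CPM and the 3 genes of each nuclear list with the smallest p. Mtrfr, on the list of translation factors, was not matched. The members and lists were chosen with earlier results of these data known. Between the libraries of each group the chi-square per gene averaged 12.4, 16.6 and 23.7, so no pair is 1 library deposited again. Totals of 36269261 to 51017058 reads put the floor of 3 reads at 0.0588 to 0.0827 CPM.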

Additional observations from a re-analysis of the deposited data

How the results depend on the processing

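With 2 libraries a group each call rests on few values, and a p that misses the threshold does not show that levels were equal. For the CPM of 16 members and the shares of 6 (mt-Nd1, mt-Nd2, mt-Nd4l, mt-Co3, mt-Tp and mt-Atp8), 1018 of the values under alternatives kept their direction and side of the threshold, 35 newly passed, 20 no longer passed and 43 changed sign; the cause was not tested. Some alternatives, such as another filter or the 4 libraries alone, cannot change a direction. With no filter on low genes limma called 0 members in each comparison, on both scales, and 57, 15 and 7 genes in all against 838, 344 and 480. In the order RH/RQ vehicle against RH/+, treated against vehicle RH/RQ, treated against RH/+, the CPM calls were 1, 2 and 2. The first count was 2 with the 4 libraries alone, beside 1158 genes in all. The second was 4 with edgeR, 4 on CPM over nuclear genes and 1 with a pseudocount of 5, beside 348, 361 and 290. A replicate block on the first digit of the sample titles gave 3 and 6 calls in the first and second comparisons, beside 1173 and 567 genes in all. For shares it gave 2 in the first, beside 445. The labels do not say that this digit pairs libraries, and deviations of same-digit libraries correlated by 0.13, -0.02 and 0.07 over 16804 genes. For shares the first count, 1, was 2 with the 4 libraries alone, beside 970 genes in all. Adding the copies' reads gave 0 in the first and 0 in the second, beside 442 and 1051. With edgeR the third was 1 against 0, beside 513. Leaving out 1 library changed which members were called on both scales. The number of genes called in all moved as well, so these counts are not compared. By CPM mt-Nd4l then ran from 0.63 to 1.06 in the first comparison and from -0.76 to -0.33 in the second. mt-Co3 ran from -0.88 to -0.85 in the second and from -0.79 to -0.46 in the third, and mt-Tp from -0.59 to -0.32 in the third. As shares mt-Nd4l ran from 0.49 to 0.98 in the first and mt-Co3 from -0.73 to -0.50 in the second. In these fits the lone library of a group is assumed to vary like the other groups. The summed level in the first comparison moved from 0.12 to 0.29 per cardiomyocyte marker reads and to 0.08, with overlap, against nuclear reads with TMM factors, which moved the third from -0.13 to -0.24.

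The changes of sign were of values that had not passed with all libraries and the main settings. After the change 2 passed: mt-Atp8 by CPM in the third comparison without treated replicate 1 (-0.66, limma adjusted p = 0.0298), and its share in the second without treated replicate 2 (0.77, limma adjusted p = 0.00105). In RH/RQ vehicle against RH/+ hearts, DESeq2, RLE factors and TMM factors gave -0.048, -0.049 and -0.046 for mt-Nd1, -0.048, -0.047 and -0.044 for mt-Nd4 and -0.0090, -0.015 and -0.012 for mt-Nd6, and CPM over nuclear genes gave 0.028 for mt-Co2. In treated against RH/+ hearts mt-Nd5 was at -0.067, -0.088 and -0.085 under the same 3 scalings and at -0.0092 on CPM over nuclear genes. The share of mt-Atp8 in treated against vehicle RH/RQ hearts was 0.060 with edgeR. Leaving out 1 library moved the first comparison from -0.11 to 0.57 for mt-Rnr1, from -0.12 to 0.62 for mt-Rnr2, from -0.029 to 0.032 for mt-Nd1, from -0.32 to 0.31 for mt-Co2, from -0.10 to 0.61 for mt-Atp6, from -0.056 to 0.063 for mt-Nd4 and from -0.059 to 0.13 for mt-Nd6. It moved the second from -0.31 to 0.022 for mt-Nd2, from -1.42 to 0.40 for mt-Atp8, from -0.97 to 0.12 for mt-Atp6 and from -0.33 to 0.14 for mt-Nd6, and the third from -0.66 to 1.16 for mt-Atp8, from -0.72 to 0.37 for mt-Atp6, from -0.17 to 0.065 for mt-Nd3, from -0.19 to 0.24 for mt-Nd5 and from -0.29 to 0.18 for mt-Nd6. As shares mt-Atp8 ran from -1.36 to 0.77 in the second and from -0.69 to 1.45 in the third, where mt-Nd1 ran from -0.021 to 0.026 and mt-Nd2 from -0.12 to 0.0080. Treated replicates 1 and 2 set both ends for mt-Atp8.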
